A study of Rattus norvegicus with 12 samples.

Results

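The insulin-like growth factor (IGF) system was followed through 10 genes, namely the ligands Igf1 and Igf2, the receptors Igf1r and Igf2r, and the binding proteins Igfbp2, Igfbp3, Igfbp4, Igfbp5, Igfbp6 and Igfbp7. They were taken by gene symbol from tables of 18483 genes, 10 of 10 were found, and all 10 were among the 13967 genes kept by the filter on low counts. The gene IDs in the tables, in the order just given, are 24482, 24483, 25718, 25151, 25662, 24484, 360622, 25285, 25641 and 289560. RNA was sequenced from neonatal rat ventricular myocytes (NRVMs), primary heart muscle cells of Sprague-Dawley rats. The cells carried either siNeg, a negative control siRNA, or siSlc39a2, an siRNA against the zinc transporter Slc39a2. Each siRNA was studied without further treatment and with phenylephrine (PE), an alpha-adrenergic agonist that makes cultured cardiomyocytes grow, given for 36 h from 12 h after transfection. This gave 4 groups of 3 biological replicates, called siNeg, siNeg PE, siSlc39a2 and siSlc39a2 PE. All 4 groups were cultured in DMEM with antibiotics and an insulin-transferrin-selenium supplement, so insulin, which is related to the IGFs, was present in the controls as well. The knockdown rests on a single siRNA sequence, and the myocytes were separated from other heart cells by a density gradient, so a remainder of non-myocytes could be present.

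IGF1 and IGF2 are secreted peptides that act mainly through the IGF1 receptor, a tyrosine kinase that signals through IRS proteins to PI3K, AKT and mTOR and promotes growth and survival of heart muscle. The IGF2 receptor, also known as the cation-independent mannose 6-phosphate receptor, removes IGF2 and sorts enzymes to lysosomes. IGF binding proteins are secreted carriers that hold IGFs outside the cell, prolong their life and often limit their access to the receptor, until proteases release them. In the heart the ligands and most binding proteins come largely from non-myocytes, and IGF1 signalling is known for physiological growth of myocytes.

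Igfbp4, Igfbp5 and Igfbp6 had the largest falls of the binding proteins after knockdown, and Igf1r rose under PE, so the sequences ahead of their start sites are shown. They are the 250 bases before the RefSeq transcription start, 5′ to 3′ on the gene's strand, on build GRCr8. Igfbp4 lies at chr10:84491221-84491470 (+), Igfbp5 at chr9:81914188-81914437 (-), Igfbp6 at chr7:135154669-135154918 (+) and Igf1r at chr1:130959747-130959996 (+). Capitals mark a TATA box core (TATAAA) and a GC box core (GGGCGG), searched on both strands.
Igfbp4: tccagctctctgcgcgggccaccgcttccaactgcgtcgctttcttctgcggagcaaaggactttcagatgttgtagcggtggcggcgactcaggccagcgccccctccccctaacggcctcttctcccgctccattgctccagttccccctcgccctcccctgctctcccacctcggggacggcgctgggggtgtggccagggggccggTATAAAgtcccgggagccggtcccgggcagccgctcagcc
Igfbp5: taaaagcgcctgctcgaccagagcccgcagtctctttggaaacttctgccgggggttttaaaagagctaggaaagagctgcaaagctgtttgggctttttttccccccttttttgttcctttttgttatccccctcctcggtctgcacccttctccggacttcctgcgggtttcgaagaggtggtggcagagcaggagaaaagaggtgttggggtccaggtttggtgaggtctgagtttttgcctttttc
Igfbp6: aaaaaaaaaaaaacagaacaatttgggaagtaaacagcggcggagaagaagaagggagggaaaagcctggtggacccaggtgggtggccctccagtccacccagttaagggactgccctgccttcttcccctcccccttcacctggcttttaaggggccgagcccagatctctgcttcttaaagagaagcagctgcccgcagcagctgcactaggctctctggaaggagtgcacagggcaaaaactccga
Igf1r: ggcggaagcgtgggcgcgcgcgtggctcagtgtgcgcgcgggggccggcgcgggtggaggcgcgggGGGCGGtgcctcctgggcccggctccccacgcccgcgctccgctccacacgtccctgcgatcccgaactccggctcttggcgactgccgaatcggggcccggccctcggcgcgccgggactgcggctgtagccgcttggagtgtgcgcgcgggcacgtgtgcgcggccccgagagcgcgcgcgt

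All 10 members matched the RefSeq promoter table, with 11 starts because Igf2 has 2. TATAAA was found in 1 of 10 members, Igfbp4, at 40 bases before the start (position -40), and in 12.9% of 33469 promoters of the same length. GGGCGG was found in 5 of 10 members (Igf2, Igf1r, Igf2r, Igfbp2 and Igfbp7, the last with 4 matches) and in 30.5% of all promoters. The windows of Igfbp5 and Igfbp6 held neither motif. Percent GC ranged from 46.8% (Igf1) to 79.6% (Igf1r), against a median of 51.2% over all promoters. In the same annotation Igfbp2 and Igfbp5 are next to each other on chromosome 9, and Igfbp3 is beside Igfbp1 on chromosome 14.

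Total counts per sample were between 24065539 and 28603854. Slc39a2 was at 2.06 ± 0.23 CPM (counts scaled to the normalized library size, mean ± SD, n = 3) in siNeg and 0.392 ± 0.324 in siSlc39a2, lower by -2.35 ± 0.46 on the log2 scale (SE; adjusted p = 9.80e-04, edgeR). Its counts in siSlc39a2 ran from 2 to 21, the lowest under the 3 counts taken as the floor of detection. With PE it was at 5.71 ± 1.92 CPM in siNeg PE and 1.13 ± 0.26 in siSlc39a2 PE. Nppb, the natriuretic peptide used as a sign of hypertrophy, went from 8.24 CPM in siNeg to 299.9 in siNeg PE, and from 57.7 in siSlc39a2 to 1509 in siSlc39a2 PE. Summed CPM of 10 cardiomyocyte markers was 49723 to 50674 in siNeg and 39190 to 40362 in siSlc39a2. With PE it was 46745 to 50663 in siNeg PE and 41486 to 43006 in siSlc39a2 PE, so the labelled cell type was plain in every group. Most of the difference without PE was Myh6, at 15858 CPM in siNeg and 7407 in siSlc39a2, with partly fractional counts. Of the 10 markers 5 were lower after knockdown without PE (26.4% of all genes), and 5 did not pass. Markers of other cells were present too and moved with the groups. Of 10 fibroblast markers none was at 0, and their sum was 13911 to 18414 in siNeg, 9220 to 11821 in siNeg PE, 5394 to 5701 in siSlc39a2 and 3640 to 5028 in siSlc39a2 PE. Most of it was collagen, with Col1a1, Col3a1 and Col1a2 at 10756, 3534 and 1746 CPM of a mean sum of 16689 in siNeg. Of the 10, 7 were lower after knockdown without PE (adjusted p under 0.05), where 26.4% of all genes were. Tcf21, Pdgfra and Ddr2 were not, at 27.4, 41.1 and 54.4 CPM in siNeg and 34.7, 44.7 and 53.0 in siSlc39a2. Col1a2 and Pdgfra had partly fractional counts. Replicate 1 of siNeg had the lowest fibroblast sum of its group. In CPM it was also lowest for Igf1, Igf2, Igf1r, Igf2r, Igfbp3, Igfbp5 and Igfbp6. It was in the middle for Igfbp2 and Igfbp4 and highest for Igfbp7. Summed CPM of 9 mural cell markers was 1528 to 1616, 1225 to 1416, 748 to 822 and 1225 to 1267 in the same order of groups, none of them at 0. Members of this list went both ways. Tagln went from 666 CPM in siNeg to 239 in siNeg PE, while Cnn1 went from 27.9 to 166 and Mcam from 176 to 303. After knockdown PE took Cnn1 from 12.0 to 235 and Tagln from 270 to 230. For 9 macrophage markers the summed CPM was 22.9 to 27.9, 15.5 to 17.0, 17.2 to 19.03 and 12.3 to 13.8 in that order of groups, with none at 0. The 10 endothelial markers summed to between 18.6 and 28.5 in all samples, with 1 of them at 0 in both knockdown groups. In bulk RNA, fewer cells of a type and less RNA per cell cannot be told apart.

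**Figure D1:**
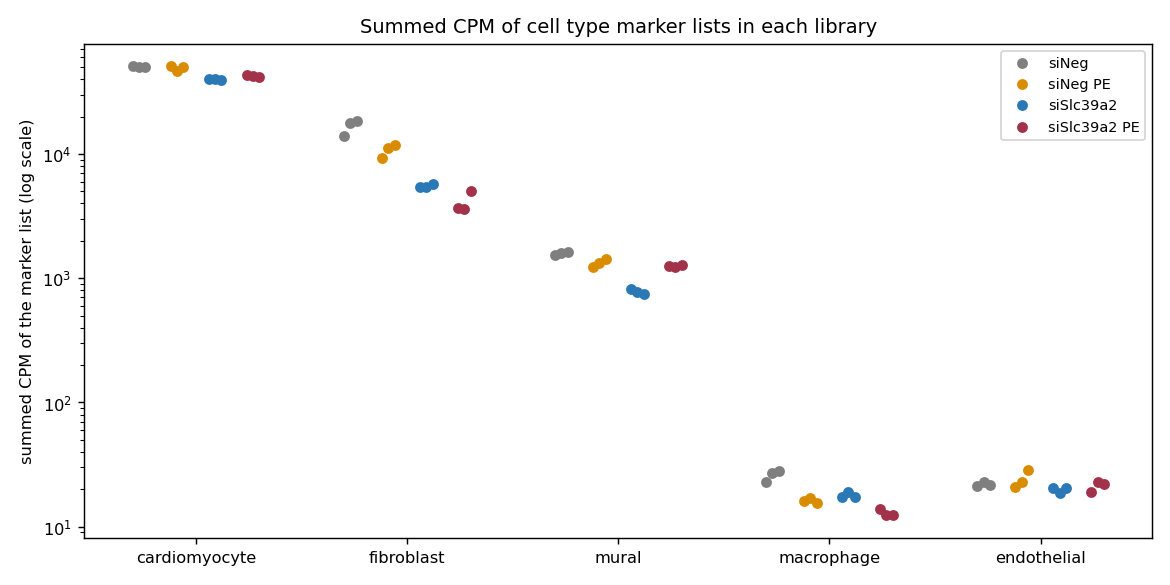
Summed CPM (y axis, log scale) of the marker genes of 5 cell types (x axis), with 1 point per sample coloured by group. Fibroblast sums, mostly of Col1a1, Col3a1 and Col1a2, were 13911 to 18414 in siNeg and 5394 to 5701 in siSlc39a2 with no overlap. Cardiomyocyte sums were 39190 or more in every sample.

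To compare levels between genes, FPKM values, which are per gene length, were used. In siNeg, Igfbp7 stood first at 240.3 ± 4.94 FPKM (SD, n = 3), followed by Igf2r at 111 ± 15.2. Igfbp4 at 47.1 ± 1.28 and Igfbp6 at 42.9 ± 5.47 came next, and their samples overlapped. Igfbp5 (16.6 ± 2.63), Igfbp3 (10.7 ± 2.51), Igf1 (6.13 ± 0.41), Igf1r (5.21 ± 0.35), Igf2 (3.25 ± 0.13) and Igfbp2 (1.21 ± 0.21) followed without overlap between neighbours. The binding proteins thus outweighed the ligands by far at the RNA level. The order changed between groups. In siSlc39a2 PE, Igf1r moved up to the fourth place with 10.5 ± 0.42 FPKM, and Igfbp5 fell to the ninth with 0.88 ± 0.31, where its samples overlapped those of Igf2 (1.13 ± 0.20). Igfbp7 and Igf2r held the first and second place in all 4 groups.

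Knockdown of Slc39a2 without PE gave lower counts for most of the system. Of 10 members, 8 passed the test (adjusted p under 0.05) and all 8 were lower in siSlc39a2, namely both ligands, Igf2r and the binding proteins other than Igfbp3. Over all genes tested 49.2% passed, 22.8% higher and 26.4% lower. Of the 8, 6 were also lower by more than 1 on the log2 scale (Igf1, Igf2, Igfbp2, Igfbp4, Igfbp5 and Igfbp6), where 5.21% of all genes were. The median log2 fold change of the members was -1.15, and that of all genes tested was -0.02. In 8 of 10 members the siSlc39a2 samples did not overlap the siNeg samples in CPM, as in 58.5% of all genes, and all 8 were lower. The counts of members without overlap below are also by CPM.

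PE with the control siRNA changed 9 of 10 members, where 49.7% of all genes passed, 24% higher and 25.7% lower. Igf1, Igf1r and Igf2r were higher and Igf2, Igfbp2, Igfbp3, Igfbp4, Igfbp5 and Igfbp6 were lower in siNeg PE, and Igfbp7 did not pass. Only Igfbp2 and Igfbp3 changed by more than 1 on the log2 scale, both lower, as 2.8% of all genes were. The same 9 members had samples that did not overlap between the groups, as in 59.8% of all genes. The median of the members was -0.43 and that of all genes -0.01. The count of 9 fell to 5 without replicate 3 of siNeg PE, since Igf1, Igf2, Igf2r and Igfbp2 no longer passed.

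The same comparisons were made in the other arm. With PE present, knockdown changed 9 of 10 members (57.3% of all genes), 7 lower (28.1% of all genes) and 2 higher (29.2%), the last being Igf1r and Igfbp3. Igf2, Igfbp4, Igfbp5 and Igfbp6 were lower by more than 1 on the log2 scale (5.58% of all genes), and 9 members did not overlap between groups (63.5%). Only Igfbp2 did not pass. After knockdown, PE changed 7 of 10 members (60% of all genes), with Igf1 and Igf1r higher (30.7% of all genes) and Igfbp2, Igfbp3, Igfbp4, Igfbp5 and Igfbp6 lower (29.3%). Of these Igfbp2 and Igfbp5 were lower by more than 1 (4.17%), and 6 members did not overlap between groups (65.2%). The medians of the members were -0.83 for knockdown with PE and -0.31 for PE after knockdown, against 0.01 over all genes in both. These 4 comparisons share groups, so their values are not independent of each other.

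**Figure D2:**
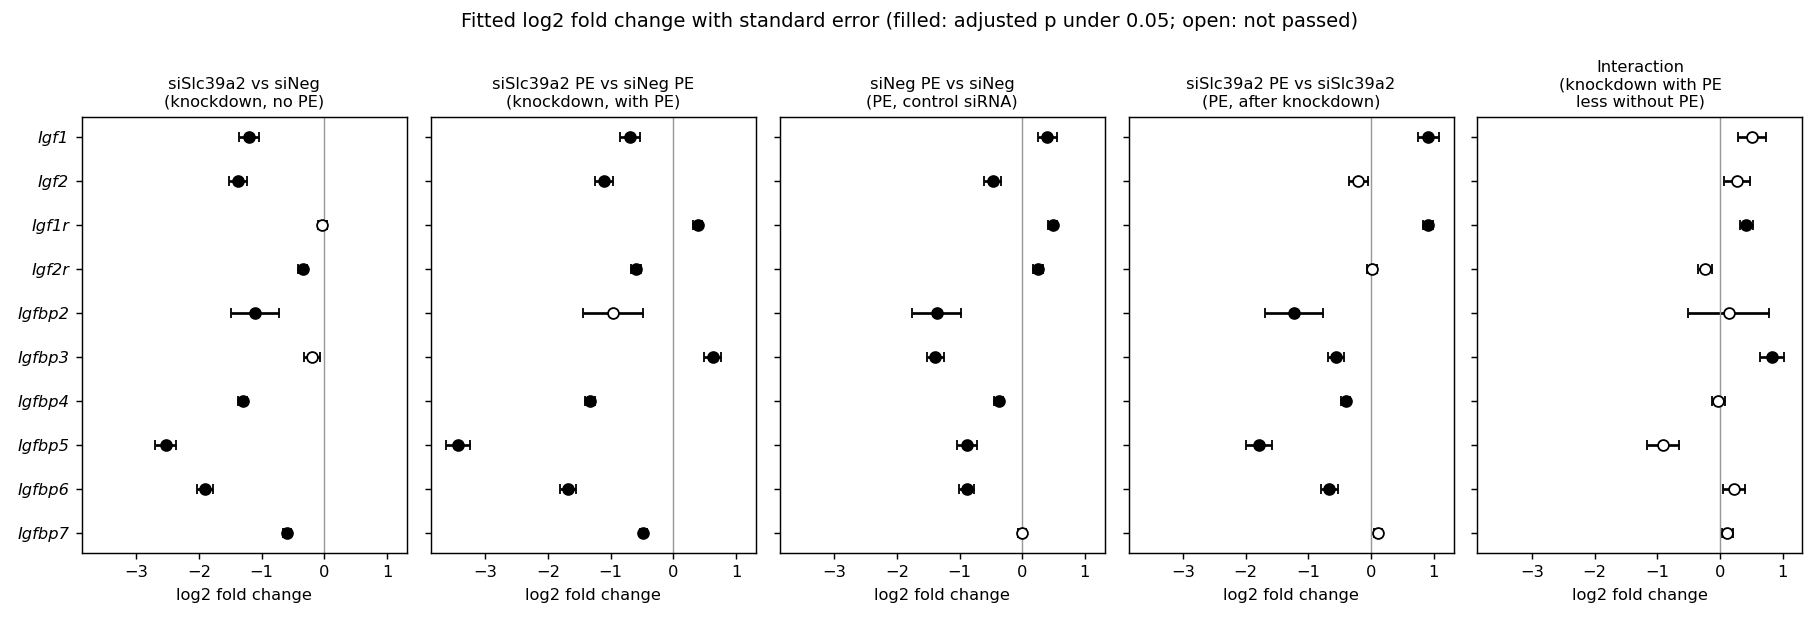
Fitted log2 fold change (x axis) of the 10 members (y axis) in the 4 comparisons and the interaction, with bars for 1 SE and filled points for an adjusted p under 0.05. Igfbp5 lies farthest to the left in both knockdown panels, at -2.53 without PE and -3.44 with PE, and Igf1r lies at -0.03 and 0.39 in the same panels.

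Igf1 encodes the ligand that signals through the IGF1 receptor. Its 3 siNeg samples were at 17.6, 18.9 and 18.4 CPM and the siSlc39a2 samples at 7.61, 6.64 and 9.67. With PE they were at 20.6, 26.0 and 26.0 in siNeg PE and at 12.3, 13.97 and 18.7 in siSlc39a2 PE. Knockdown samples were below their controls with and without PE, and the siSlc39a2 PE samples reached the siNeg level in 1 of 3. The log2 fold change of knockdown was -1.20 ± 0.17 (SE; adjusted p = 6.67e-05, edgeR's quasi-likelihood test here and below) without PE and -0.69 ± 0.16 (0.0024) with PE. The rise under PE was 0.91 ± 0.17 (5.10e-04) after knockdown. With siNeg it was 0.40 ± 0.16 with an adjusted p of 0.0486, close to the threshold. That call was lost in 10 of 20 alternative settings, among them the removal of any 1 siNeg sample (adjusted p up to 0.120), of replicate 2 or 3 of siNeg PE (0.143 and 0.142), of replicate 2 of siSlc39a2 PE (0.0603) or of replicate 1 of siSlc39a2 (0.0619). On FPKM the siNeg samples, at 5.68 to 6.48, overlapped the siNeg PE samples, at 6.30 to 7.60, and limma on quantile-normalized log2(FPKM + 1) and log2(FPKM + 0.1) gave a difference of only 0.05 and 0.06 (adjusted p = 0.650 and 0.677).

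Igf2, the fetal growth factor, was at 11.8, 11.9 and 12.4 CPM in siNeg and 4.32, 4.13 and 5.50 in siSlc39a2. Its siNeg PE samples were at 8.03, 9.71 and 8.22 and its siSlc39a2 PE samples at 4.18, 3.28 and 4.62. All 6 knockdown samples lay below all 6 samples with siNeg. The log2 fold change of knockdown was -1.37 ± 0.15 (adjusted p = 6.91e-06) without PE and -1.11 ± 0.15 (4.69e-05) with PE. PE lowered Igf2 by -0.47 ± 0.14 (0.0139) with siNeg, a call lost without replicate 3 of siNeg PE (-0.44, adjusted p = 0.0548). After knockdown the PE difference of -0.21 ± 0.15 did not pass (0.256), except with limma on log2(FPKM + 0.1) (-0.32, adjusted p = 0.0397). The ratio of Igf1 to Igf2 in FPKM went from 1.88 ± 0.10 in siNeg to 2.90 ± 0.28 in siNeg PE, and from 2.29 ± 0.02 in siSlc39a2 to 4.53 ± 0.94 in siSlc39a2 PE (SD, n = 3, no test).

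Igf1r, the receptor that carries the growth signal, rose with PE in both arms. Its samples were at 41.6, 46.2 and 45.4 CPM in siNeg, 43.2, 44.6 and 42.4 in siSlc39a2, 56.3, 63.9 and 66.8 in siNeg PE, and 81.0, 81.1 and 82.2 in siSlc39a2 PE. The untreated groups overlapped in CPM, whereas the siSlc39a2 PE samples were above all the others. In FPKM the untreated groups did not overlap, at 4.81 to 5.46 in siNeg and 5.72 to 6.07 in siSlc39a2. PE raised Igf1r by 0.49 ± 0.07 on the log2 scale with siNeg (adjusted p = 2.13e-04) and by 0.91 ± 0.07 after knockdown (8.26e-07). Knockdown made a difference of -0.03 ± 0.07 without PE (0.733) and of 0.39 ± 0.07 with PE (6.00e-04).

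Igf2r had the highest CPM of all members, at 863, 1055 and 1089.8 in siNeg and 817, 771 and 772 in siSlc39a2. The siNeg PE samples were at 1162, 1166 and 1259.7 and the siSlc39a2 PE samples at 782, 800.1 and 797. In CPM all 6 knockdown samples were below all 6 siNeg samples. Knockdown gave -0.35 ± 0.08 without PE (adjusted p = 0.00269) and -0.59 ± 0.08 with PE (4.56e-05). In FPKM the siNeg samples, at 93.67 to 121.99, overlapped those of siSlc39a2 (93.57 to 99.5) and siSlc39a2 PE (92.06 to 94.7). Under PE Igf2r was higher by 0.25 ± 0.08 with siNeg (0.0178). That call did not pass without replicate 1 of siNeg (0.16, adjusted p = 0.0512) or replicate 3 of siNeg PE (0.22, 0.0710). After knockdown the PE difference was 0.01 ± 0.08 (0.911). The receptors thus differed in their response, and the ratio of Igf2r to Igf1r in FPKM went from 21.3 ± 1.68 in siNeg to 17.8 ± 1.72 in siNeg PE, and from 16.4 ± 0.82 in siSlc39a2 to 8.95 ± 0.34 in siSlc39a2 PE (SD, n = 3, no test).

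**Figure D3:**
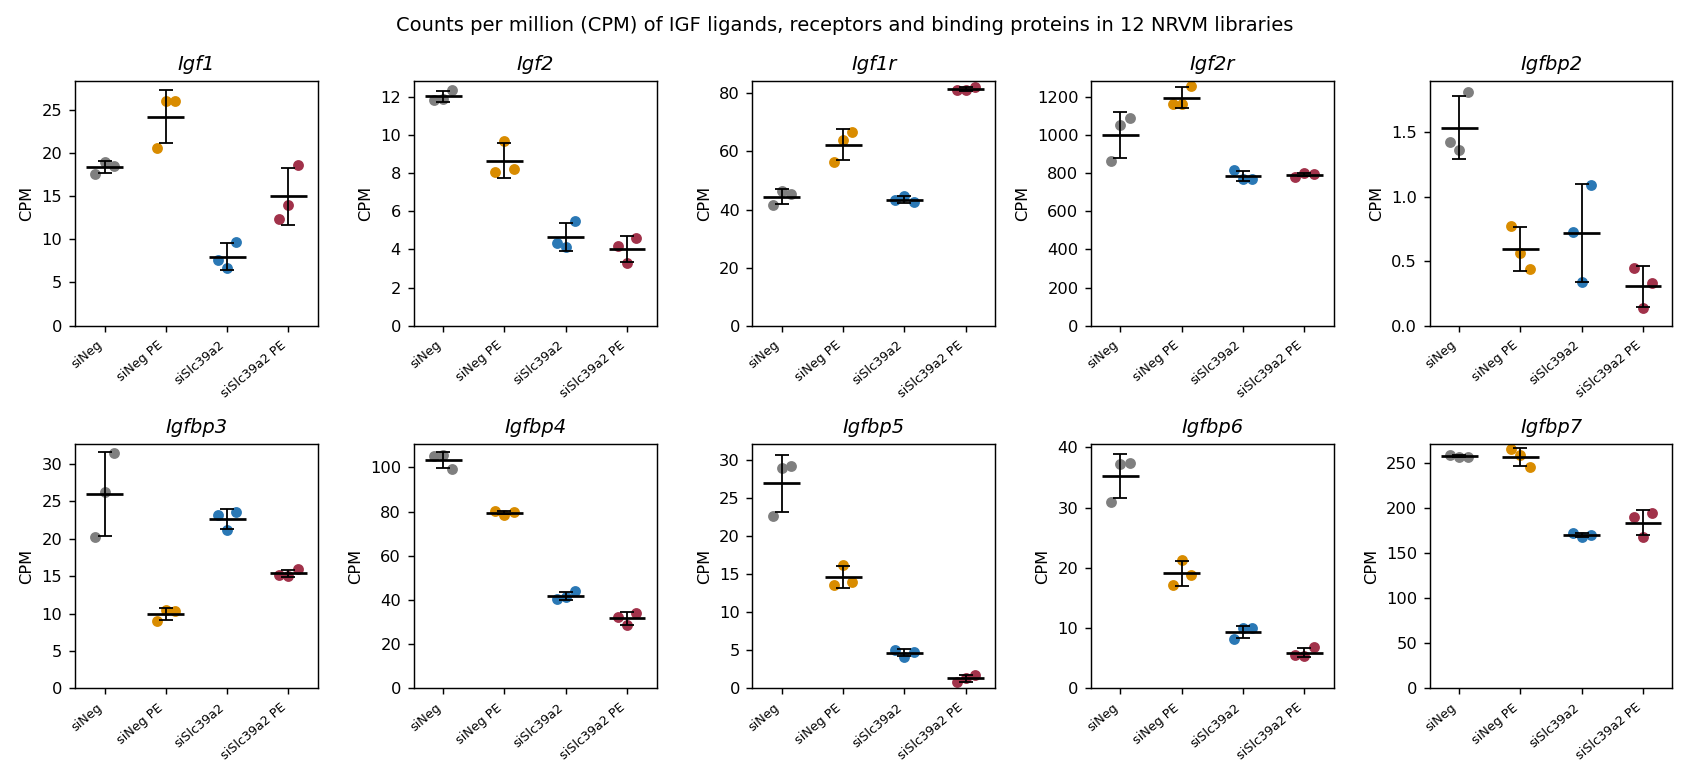
CPM (y axes, from 0) of the 10 members in the 4 groups (x axes), with 1 point per sample, the mean as a line and the SD as bars (n = 3). Igfbp5 steps down from 22.7 to 29.2 CPM in siNeg to 0.895 to 1.82 in siSlc39a2 PE, and the 3 siSlc39a2 PE samples of Igf1r, at 81.0 to 82.2, sit above the other groups.

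Igfbp5 showed the largest fold differences of the members in both knockdown comparisons and for PE after knockdown, but not for PE with siNeg. This binding protein also attaches to the extracellular matrix. It was at 22.7, 28.9 and 29.2 CPM in siNeg, 13.6, 16.3 and 14.01 in siNeg PE, 5.08, 4.17 and 4.76 in siSlc39a2, and 0.895, 1.31 and 1.82 in siSlc39a2 PE. The 4 groups did not overlap and fell in that order. In counts, the lowest group had 24, 38 and 50 reads, well above the 3 counts taken as the floor of detection. The log2 fold change of knockdown was -2.53 ± 0.17 without PE (adjusted p = 7.78e-08), a 5.77-fold lower level, and -3.44 ± 0.20 with PE (1.83e-08), 10.8-fold lower. PE lowered it by -0.88 ± 0.15 with siNeg (6.20e-04) and by -1.79 ± 0.21 after knockdown (1.62e-05).

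Igfbp6, which binds IGF2 in preference to IGF1, fell in the same order of groups. Its samples were at 31.0, 37.3 and 37.4 CPM in siNeg, 17.2, 21.3 and 18.8 in siNeg PE, 8.26, 9.99 and 9.98 in siSlc39a2, and 5.56, 5.38 and 6.87 in siSlc39a2 PE. No group overlapped another. Knockdown gave -1.90 ± 0.12 without PE (adjusted p = 6.93e-08) and -1.68 ± 0.13 with PE (3.42e-07), and PE gave -0.88 ± 0.12 with siNeg (9.99e-05) and -0.66 ± 0.13 after knockdown (9.66e-04).

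Igfbp4, mainly an inhibitor of IGF action, was at 105, 106 and 99.2 CPM in siNeg, 80.0, 78.5 and 80.0 in siNeg PE, 40.3, 41.6 and 43.9 in siSlc39a2, and 32.1, 28.5 and 34.3 in siSlc39a2 PE. Again the groups stepped down without overlap. The knockdown difference was nearly the same in both arms, -1.30 ± 0.07 without PE (adjusted p = 1.38e-08) and -1.33 ± 0.07 with PE (1.34e-08), and so was that of PE, -0.38 ± 0.07 (0.00102) and -0.41 ± 0.07 (4.82e-04). Beside the changes of Igfbp4, Igfbp5 and Igfbp6 stand those of the fibroblast list. After knockdown 7 of its 10 genes were lower (26.4% of all genes), among them Col1a1 (-1.68), Col1a2 (-1.69), Thy1 (-1.37) and Dcn (-0.80). Only 1 was higher (Tcf21, 0.34, against 22.8% of all genes), and Pdgfra (0.12, adjusted p = 0.439) and Ddr2 (-0.04, 0.859) did not pass. Under PE with siNeg 5 were lower (25.7% of all genes), and Dcn (0.44) and Pdgfra (0.74) were higher (24%). In this list Col1a2 and Pdgfra had partly fractional counts and are uncertain. Of the tested markers of other cells, 8 of 9 mural, 3 of 8 macrophage and 2 of 8 endothelial genes were lower after knockdown and none was higher. The macrophage and endothelial counts were not far from the 26.4% of all genes. The part of other cell types in the changes of the ligands, Igf2r and the binding proteins was not tested.

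Igfbp3, the main IGF carrier of blood plasma, had a pattern of its own. It was at 20.3, 26.3 and 31.4 CPM in siNeg and 23.2, 21.2 and 23.6 in siSlc39a2, which overlapped, and at 8.99, 10.4 and 10.4 in siNeg PE and 15.1, 15.1 and 15.9 in siSlc39a2 PE, which did not. PE thus lowered it in both arms, by -1.39 ± 0.13 with siNeg (adjusted p = 7.97e-06) and by -0.56 ± 0.13 after knockdown (0.00265). Knockdown made a difference of -0.20 ± 0.13 without PE (0.216), which passed without replicate 1 of siNeg (-0.35, adjusted p = 0.0145). With PE present Igfbp3 was higher in the knockdown, by 0.63 ± 0.13 (0.00155).

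Igfbp7, a secreted protein of the family with low affinity for IGFs, was lower after knockdown in both arms. It was at 259, 257 and 257 CPM in siNeg, 265, 259 and 246 in siNeg PE, 172, 168 and 170.3 in siSlc39a2, and 189.6, 168 and 194 in siSlc39a2 PE. All knockdown samples were below all siNeg samples, by -0.60 ± 0.06 without PE (adjusted p = 4.61e-06) and -0.48 ± 0.06 with PE (3.02e-05). The PE differences of -0.01 ± 0.06 (0.939) and 0.11 ± 0.06 (0.124) did not pass, although the second passed without replicate 2 of siSlc39a2 PE (0.17, adjusted p = 0.0281).

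Igfbp2 was the rarest member, with 36, 36 and 46 counts in siNeg, 21, 16 and 12 in siNeg PE, 21, 10 and 28 in siSlc39a2, and 12, 4 and 9 in siSlc39a2 PE. At this depth its errors were the widest. It was lower with PE in siNeg (-1.37 ± 0.39, adjusted p = 0.0127) and after knockdown without PE (-1.10 ± 0.39, 0.0308). The first call was lost without replicate 3 of siNeg PE (0.0562), and the second without replicate 1 or 3 of siNeg or replicate 1 or 2 of siSlc39a2 (adjusted p up to 0.112). PE after knockdown gave -1.22 ± 0.46 (0.0358) with overlapping samples, a call lost without replicate 1 or 3 of siSlc39a2 or replicate 2 or 3 of siSlc39a2 PE (adjusted p up to 0.151), or with the groups of that comparison fitted alone (0.0736). Knockdown with PE gave -0.96 ± 0.47, which did not pass (0.0986) except without replicate 1 of siSlc39a2 PE (-1.34, adjusted p = 0.0496).

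The makeup of the binding protein pool moved along with these changes. The FPKM of the 6 binding proteins summed to 359 ± 15.5 in siNeg and 331 ± 11.1 in siNeg PE, and after knockdown to 223 ± 6.44 without PE and 214 ± 16.5 with it (SD, n = 3). Igfbp7 made up 67.0 ± 1.63% of that sum in siNeg and 76.6 ± 1.15% in siNeg PE, and 78.5 ± 0.87% in siSlc39a2 and 85.5 ± 0.53% in siSlc39a2 PE, a rising share as most other binding proteins fell by more. The share of Igfbp4 was 13.2 ± 0.65% in siNeg and 7.18 ± 0.11% in siSlc39a2 PE, and that of Igfbp5 was 4.62 ± 0.55% and 0.411 ± 0.131%. Igfbp3 took a larger share in siSlc39a2, 4.61 ± 0.20%, than in siNeg, 2.97 ± 0.58%. Per 100 FPKM of binding proteins the ligands had 2.61 ± 0.04 in siNeg and 2.91 ± 0.29 in siNeg PE, and 2.02 ± 0.27 and 2.90 ± 0.39 after knockdown without and with PE. The ligand sum was thus lower relative to the 6 binding proteins in siSlc39a2 alone. This ratio rests mostly on Igfbp7, which made up most of the sum in every group. With Igfbp7 left out of the sum, the ratio was instead higher in siSlc39a2 than in siNeg. These shares and ratios are descriptions with no test, and an exact permutation test of 3 against 3 samples could not go below p = 0.1.

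**Figure D4:**
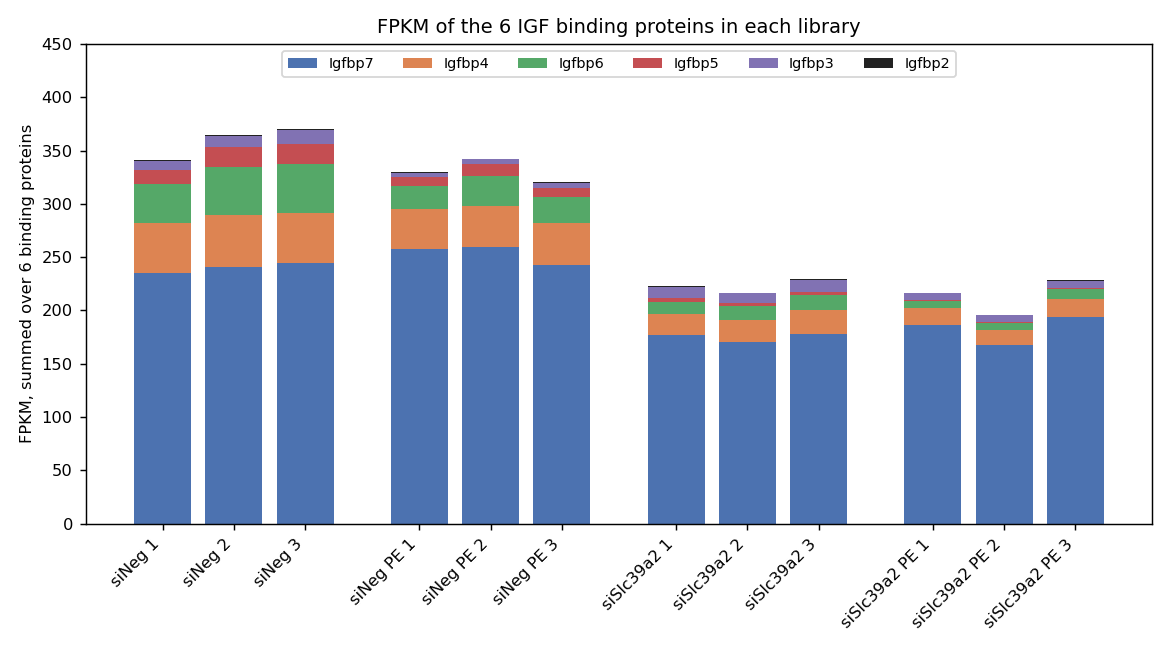
FPKM (y axis, from 0) of the 6 binding proteins stacked in each of the 12 samples (x axis), coloured by gene. The bars are shorter in the 6 knockdown samples, 196 to 229 against 320.1 to 371 with siNeg, and Igfbp7 fills most of every bar.

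Whether PE acted differently after knockdown was tested by the interaction, the PE effect in siSlc39a2 less that in siNeg. Of 10 members 2 passed, where 3.61% of all genes did, 1.73% higher and 1.88% lower. Both were higher. Igf1r had an interaction of 0.42 ± 0.10 (adjusted p = 0.0435), since its rise under PE was larger after knockdown. Igfbp3 had one of 0.83 ± 0.19 (0.0274), since its fall was smaller. Both calls were close to the threshold. That of Igf1r was lost on removal of any 1 sample other than replicate 1 of siNeg and replicate 3 of siNeg PE (adjusted p up to 0.123), and with RLE size factors (0.0560), no count filter (0.0987) or limma (0.0673 to 0.103). That of Igfbp3 was lost in 8 of the 12 removals of 1 sample (adjusted p up to 0.0807), namely without replicate 2 of siNeg, replicate 1 or 2 of siNeg PE, any 1 siSlc39a2 sample, or replicate 2 or 3 of siSlc39a2 PE. Igfbp5 had a larger value, -0.91 ± 0.26, that did not pass (0.0768), but did with DESeq2 (0.0110), with the replicate numbers as a block (0.0357) and without replicate 3 of siSlc39a2 PE (0.0222). The other 7 members had adjusted p-values from 0.293 to 0.952.

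Members were also compared by their pattern over the 12 samples, as Pearson's r of log2 CPM. The 12 points fall into 4 groups, so r mostly reflects group means and is given as a description. Igf2, Igfbp4, Igfbp5 and Igfbp6 ran together, with r from 0.935 (Igf2 and Igfbp5) to 0.983 (Igfbp4 and Igfbp6). Igf1r ran against most binding proteins, with the lowest r, -0.745, toward Igfbp2. Among 11117 genes, the one most like Igfbp5 was Pltp (0.992), whose counts were not whole in every sample and are uncertain, followed by Pcsk5 (0.990). Gpc3 (0.997) was most like Igfbp6, Cpz (0.995) most like Igfbp4, and Chrd (0.994) most like Igf2. Igf1r was closest to Tubb6 (0.991) and Fhl1 (0.990), Igfbp3 to Vegfc (0.978), Igf2r to Nav1 (0.979), Igf1 to Man2a1 (0.972), Igfbp2 to Cog7 (0.935) and Igfbp7 to Htra3 (0.995).

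Genes that act on the binding proteins were counted from a list. Of 7 tested IGFBP proteases and protease inhibitors, 5 were lower and 1 higher after knockdown without PE (26.4% and 22.8% of all genes), with a median of -0.63 against -0.02 over all genes. Htra3, a secreted serine protease that cleaves binding proteins, went from 33.9 ± 1.09 CPM to 8.76 ± 0.21 (-1.95 ± 0.10, adjusted p = 6.60e-09). Its relative Htra1 fell by 0.74 on the log2 scale, and Adam12, a metalloprotease with uncertain, partly fractional counts, by 0.92. Under PE with siNeg, 1 was higher and 2 lower, so that 3 of 7 passed where 49.7% of all genes did. Stc1, a stanniocalcin, a family known to block the IGFBP protease PAPP-A, rose from 17.3 ± 2.90 to 141 ± 0.52 CPM (3.03 ± 0.14, adjusted p = 1.60e-08), whereas Stc2 (-0.60) and the lysosomal protease Ctsd (-0.50) fell. After knockdown the PE rise of Stc1 was 1.42 ± 0.13 (2.64e-06). Pappa itself was not found by symbol among the 18483 genes, so it was not analysed here.

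Other proteins with an IGFBP domain were lower in 5 and higher in 2 of 8 tested genes after knockdown, where 26.4% of all genes were lower and 22.8% higher. Under PE with siNeg 4 of 8 passed, where 49.7% of all genes did. All 4 were lower, where 25.7% of all genes were lower and 24% higher. After knockdown Kazald1 was lower (-1.56), and Wisp1, a matricellular protein, was higher (1.35). Esm1 was also called higher (2.22, adjusted p = 0.0157) from 2 to 5 counts in siNeg, of which some are under the floor of 3, and 9 to 24 in siSlc39a2. Under PE with siNeg Wisp2 (-1.96), Nov (-0.98) and Ctgf (-0.93) fell. PE after knockdown raised Ctgf (1.29, adjusted p = 4.14e-06, interaction 2.22, 3.40e-05), lowered Wisp2 by less (-1.08, interaction 0.88, 0.0492) and gave -0.22 for Nov, which did not pass (0.247; interaction 0.76, 0.0903).

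On the receptor side, 1 of 8 tested receptor partners and adaptors was higher and 1 lower after knockdown, where 49.2% of all genes passed. The lower was Lrp1 (-1.81 ± 0.16, adjusted p = 1.19e-06), an endocytic receptor that also binds IGFBP3, and the higher was Grb10 (0.36), an adaptor that restrains the IGF1 and insulin receptors. Under PE with siNeg 3 were higher and 1 lower, so that 4 of 8 passed, a share like the 49.7% of all genes. The higher were the adaptor Irs2 at 0.51, the insulin receptor Insr at 0.32 and Grb10 at 0.19. Of 21 PI3K, AKT and mTOR genes, 3 were higher and 7 lower after knockdown and 7 higher and 8 lower under PE with siNeg, with medians of -0.03 and -0.02 close to those of all genes. After knockdown 10 of 21 passed, a share like the 49.2% of all genes, and under PE with siNeg 15 of 21 did, where 49.7% of all genes passed. Pik3ip1, an inhibitor of PI3K, fell under PE with siNeg (-1.33), under PE after knockdown (-1.91) and with knockdown alone (-0.49), as did Pik3r2 after knockdown (-0.50). Tsc2 (-0.59 after knockdown) and Pik3cb (1.17 under PE) had partly fractional counts and are uncertain. Among 5 genes for IGF2 mRNA binding and imprinting control, 3 were slightly higher after knockdown, where 22.8% of all genes were. These were Igf2bp1 (0.29), Igf2bp3 (0.28) and Ctcf (0.28). Under PE with siNeg only Igf2bp1 was higher (0.34), where 24% of all genes were. Of 4 genes of the growth hormone axis 1, Stat5a, was lower after knockdown (-0.31), a share like the 26.4% of all genes. Under PE with siNeg Stat5a (-0.72) and Stat5b (-0.27) were lower, where 25.7% of all genes were. Both had partly fractional counts.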

How the data were processed

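RNA-seq values of 12 NRVM samples were analysed. The authors deposited expected counts per gene, not normalized, and FPKM values, normalized for gene length and library size, for the same 18483 genes. The submitters' processing notes name HISAT and Bowtie2, without versions, and the build Rnor 6.0. The counting program and annotation are not given in the sources used here. Counts of the 10 members were whole in every sample, as for 70.0% of genes. Genes with fractional counts share reads and are uncertain. The labels give PE for 36 h, whereas the study's methods give another duration.

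Expected counts were rounded, filtered by filterByExpr of edgeR 4.0.16 in R 4.3.3 (4516 genes left out), normalized by TMM and fitted as 4 groups with 8 residual degrees of freedom. Tests were quasi-likelihood F-tests, p-values were adjusted over 13967 genes by the Benjamini-Hochberg procedure, and SE is the fold change over the root of F. CPM used TMM library sizes, with a prior count of 2 on the log2 scale. A gene passed at an adjusted p under 0.05. The study names limma on values it does not specify, with a log2 fold change above 1 as a further threshold. Both were alternatives, along with DESeq2 1.42.0, limma 3.58.1 and leaving out each sample. The test was checked on simulated data.

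The members and gene lists were chosen with earlier results of these data known. Named beside the members were at most 3 passing genes per list by size of change, 2 genes of highest r per member, of which the first is given for most, and Slc39a2 and Nppb as checks. A gene that this rule would also name is not reported here. Replicates were described as independent, but nothing in the labels ties them to separate isolations, so p-values measure the spread between these samples. All 12 differed by more than counting noise. Counts and floors cover counting error only, and a floor of 3 counts was used.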

Additional observations from a re-analysis of the deposited data

Results flagged for a closer look

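A difference in the PE effect between the siRNA arms passed for 2 members, by the interaction term of edgeR's quasi-likelihood test, but many alternatives lost it. Igf1r rose under PE by 0.49 with siNeg and by 0.91 after knockdown on the log2 scale, a difference of 0.42 (adjusted p = 0.0435, range 0.00870 to 0.123 over 19 alternatives, lost in 15). Igfbp3 fell by 1.39 with siNeg and by 0.56 after knockdown, a difference of 0.83 (adjusted p = 0.0274, range 0.00278 to 0.0807, lost in 8 of 19). In CPM all 3 siSlc39a2 PE samples lay above all 3 siNeg PE samples in each case, and the untreated groups overlapped. In FPKM the untreated groups did not overlap for Igf1r, where the siSlc39a2 samples were higher. Among the listed genes named in the text, the same term passed for Stc1 (-1.61, adjusted p = 4.38e-04), Ctgf (2.22, 3.40e-05), Wisp2 (0.88, 0.0492) and Pik3ip1 (-0.57, 0.0354).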

How the results depend on the processing

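Of 990 alternative values of the members, 911 kept direction and call, 47 no longer passed, 7 newly passed and 25 changed sign, all of the last among differences that had not passed. Igf1r in siSlc39a2 against siNeg became 0.0079 without a count filter. Igfbp7 in siNeg PE against siNeg became 0.0145 without a filter, 0.0142 with both groups alone, and 0.18, 0.18 and 0.13 with limma on FPKM + 1, FPKM + 0.1 and count + 1. In siSlc39a2 PE against siSlc39a2, Igf2r became -0.0061 with RLE or DESeq2, -0.0064 without a filter and -0.038 with limma on counts. The Igfbp7 interaction became -0.017, -0.017 and -0.012 with limma in the same order. Leaving out 1 sample gave -0.077 to 0.034 for Igf1r, -0.030 to 0.026 for Igfbp7 and -0.032 to 0.040 for Igf2r in these comparisons, and -0.28 to 0.51 for Igfbp2 and -0.092 to 0.040 for Igfbp4 in the interaction. The cause was not tested. With a log2 fold change above 1 as well, 4 members passed with knockdown under PE, 2 for PE with siNeg, 2 for PE after knockdown and 0 in the interaction. Leaving out 1 sample left 5 to 9 members for PE with siNeg and 0 to 2 in the interaction. The interaction had 1 member with RLE, without a filter and with each limma fit. Igf2r after knockdown did not pass with limma on counts (-0.05, adjusted p = 0.671).

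By CPM, which is not per length, Igfbp7 took 57.2, 67.4, 68.2 and 77.1% and Igfbp4 22.9, 20.9, 16.8 and 13.2% of the binding protein sum in siNeg, siNeg PE, siSlc39a2 and siSlc39a2 PE. Without Igfbp7, Igfbp4 took 39.97, 49.7, 44.2 and 49.7% of the FPKM sum. Replicate numbers were not taken to pair the samples, since in no comparison was every same-numbered pair's correlation of deviations over 0.1. It ran from -0.0904 to 0.320, with 2 of 3 pairs over 0.1 in siNeg PE against siNeg and in siSlc39a2 PE against siNeg PE, 1 in siSlc39a2 PE against siSlc39a2 and 0 in siSlc39a2 against siNeg, and at most 2 of 3 samples correlated best with their own number. With the replicate block 8, 9, 9, 7 and 3 members passed in the 4 comparisons and the interaction, and 49 of 50 calls were the same, the other being Igfbp5 in the interaction (-0.93, adjusted p = 0.0357). Over all genes the block moved the calls from 6873 to 7952 (siSlc39a2 against siNeg), 6935 to 8030 (siNeg PE against siNeg) and 504 to 1053 (interaction, 806 with DESeq2). Depth limits Igfbp2, at 4 to 46 counts, far more than the other members.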
